A study of Homo sapiens with 4 samples.

Results

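The genes described here are 52 genes of the actin cytoskeleton and of the SRF and YAP transcription programmes, taken by name from the 40205 genes listed in the files. They cover actins, myosins, actin-binding proteins, the regulators SRF, YAP and TAZ, and genes that these regulators are known to switch on. The comparison asks whether *TPM4*, which encodes a tropomyosin that lies along actin filaments, rose together with an actin programme after circZFR silencing. The RNA-seq data hold 2 control libraries, named NC 1 and NC 2, from cells that received a negative control siRNA, and 2 silenced libraries, named si-circZFR 1 and si-circZFR 2, from cells that received siRNA to circZFR. Transfection lasted 24 h in both groups, in RPMI medium with fetal calf serum. circZFR is a circular RNA made from exons of *ZFR*. The siRNA was designed against its back-spliced junction, and only 1 siRNA sequence is listed for this target. The study names the cells A549 and the sample labels name them H1299, which are both human lung cancer lines. Nothing in the labels says whether replicates came from separate cultures, so p-values measure only the spread between these libraries, which may be technical.

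Monomeric actin holds the cofactor MRTF in the cytoplasm. When actin polymerizes, MRTF enters the nucleus and binds SRF, which switches on actins, myosins, calponins and vinculin. YAP and its relative TAZ (encoded by *WWTR1*) are held back by the LATS kinases of the Hippo pathway, and tension on actin filaments releases them to act with TEAD factors on genes such as *CTGF*, *CYR61* and *ANKRD1*. In lung carcinoma cells, both programmes are known for their part in adhesion, spreading and migration.

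SRF binds a motif known as the CArG box and TEAD factors bind CATTCC. Exact matches to each were searched on both strands of RefSeq promoters (GRCh38.p14). Each promoter reached from 250 bases before to 50 bases after a start site. The CArG box was taken as CC, then only A or T, then GG, so boxes with a mismatch or further away were missed. The sequences below show where the motifs lie in *TPM4*, in *SRF* itself, in an actin and a calponin, and in a pair of well-known YAP targets. Capitals mark the CArG box in the first 4 and CATTCC, read on the other strand as GGAATG, in the last 2.
TPM4: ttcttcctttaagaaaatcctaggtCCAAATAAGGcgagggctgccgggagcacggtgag
SRF: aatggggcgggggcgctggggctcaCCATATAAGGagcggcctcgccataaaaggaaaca
ACTG1: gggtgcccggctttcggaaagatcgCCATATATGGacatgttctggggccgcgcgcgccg
CNN2: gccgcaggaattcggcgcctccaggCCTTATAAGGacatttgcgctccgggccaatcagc
CTGF: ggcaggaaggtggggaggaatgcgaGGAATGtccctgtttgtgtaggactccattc
ANKRD1: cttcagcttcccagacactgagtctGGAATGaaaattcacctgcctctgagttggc

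The *TPM4* stretch is chr19:16067340-16067399 on the plus strand, with the box starting at position -173 from the start site, in 1 of the 3 promoters listed for the gene. The *SRF* stretch is chr6:43171214-43171273 on the plus strand, and its boxes start at positions -30, shown in capitals, and -10. *ACTG1* is shown at chr17:81512859-81512918 on the minus strand and *CNN2* at chr19:1026494-1026553 on the plus strand. *CTGF*, now named *CCN2*, is shown at chr6:131951437-131951492 and *ANKRD1* at chr10:90921185-90921240, both on the minus strand. The *CTGF* promoter holds 3 copies of CATTCC.

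Promoters were found for 47 of the 52 genes, and the other 5 are *ACTB*, *MYL9*, *TAGLN*, *TEAD1* and *CYR61*. A CArG box was present in 8 of the 47 (17.021%), against 438 of 27305 genes with a RefSeq promoter (1.604%). CATTCC was present in 17 of the 47 (36.17%), against 16.726% of all these genes. The 47 had more promoters per gene (75 in all, against 35116 for the 27305). Per promoter, the shares were 13.333% against 1.293% for the CArG box and 24.0% against 14.033% for CATTCC. Some of the 52 genes were chosen as known SRF or YAP targets, so higher shares were partly set by that choice. No box overlapped a CATTCC. Such a match describes the sequence and does not show that the factor was bound there. Nor does the lack of an exact match, as for *ACTA2* and *VCL*, show that a gene has no CArG box.

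The totals ranged from 11040050 to 12816868 reads per library, and log2(RPKM + 1) correlated across genes at 0.9853 between the NC libraries and at 0.9901 between the si-circZFR libraries. All values below are scaled RPKM, which are reads per length and depth (RPKM) after scaling between libraries, and log2FC is the difference of log2(scaled RPKM + 1), si-circZFR minus NC, which understates the change of low genes. *ZFR*, the host gene of the circle, was measured at 25.98 and 31.86 scaled RPKM in NC and at 5.255 and 4.625 after silencing, which gave an FDR of 0.0388 by limma and a log2FC of -2.33 with a standard error of 0.17. Reads of the circle and of linear *ZFR* fall on the same row of the files. That row has a length of 4715 bases and held 1437 and 1740 reads in NC and 284 and 267 in si-circZFR. The study, by RT-PCR in A549 and HCC827 cells, reports that the siRNA lowered circZFR with no detectable effect on *ZFR*. How far linear *ZFR* fell in these libraries was not tested. Without NC 2, si-circZFR 1 or si-circZFR 2, the FDR of *ZFR* was 0.178, 0.37 and 0.622. Of the A549 markers checked, 7 of 9 reached 1 scaled RPKM in all libraries, among them *AKR1B10*, *AKR1C1* and *ALDH1A1*. The others were *EPCAM*, at 0.397 and 0.402 in NC and 1.828 and 2.662 in si-circZFR, and *FGB*, at 0.7754 and 1.356 against 2.597 and 1.914. Of the H1299 markers, 3 of 4 did so (*ZEB1*, *VIM* and *CDH2*), and *NCAM1* stayed below 1. The summed levels ran from 5285 to 7188 for the A549 list and from 537.5 to 675.0 for the H1299 list. The lists differ in size (9 and 4 genes) and *VIM* made up most of the H1299 sum, so the sums cannot name the line. The junction marker *CDH1*, E-cadherin, was at 11.42 and 8.517 in NC and at 21.71 and 21.27 in si-circZFR, and its part in the results below was not tested. All 5 smooth muscle markers, including *MYH11*, *DES* and *CNN1*, stayed at or below 0.128 in every library. The 3 leucocyte and the 3 endothelial markers stayed below 1 as well, and of 4 fibroblast markers only *COL1A1* reached 1, in the si-circZFR libraries.

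*TPM4* rose after circZFR silencing and passed a test that 0.0576% of all genes tested passed, and none of the 52 genes did. As *TPM4* was taken up with its rise in these libraries known, neither this contrast nor its FDR is an independent result. *TPM4* (chromosome 19, 16067021 to 16103002 of GRCh38) was measured at 36.65 and 37.70 scaled RPKM in NC 1 and NC 2, and at 170.0 and 179.1 in si-circZFR 1 and si-circZFR 2, from 1137, 1155, 5154 and 5800 reads. Both si-circZFR libraries were far above both NC libraries, by 4.696-fold in the mean. The log2FC was 2.20 (standard error 0.17, 95% interval 1.79 to 2.61, FDR = 0.0388 by limma). This FDR lay above the threshold when NC 2 (0.178), si-circZFR 1 (0.37) or si-circZFR 2 (0.622) was left out, whereas the log2FC stayed between 2.16 and 2.24 in these fits.

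All 52 genes passed the filter on low values and were tested. A gene passed at FDR under 0.05 with a log2FC beyond 1 in either direction, which 8 of the 13885 genes tested did (0.0576%), against 0 of the 52. At this share most sets of 52 genes would hold 0, so the 0 does not set these genes apart. The study, with a batch correction and a count-based test, reports many more dysregulated genes at the same thresholds. The smallest FDR among the 52 was 0.103. At an unadjusted p under 0.05 by limma, 4 of the 52 were higher and 4 lower, beside 10.1% and 11.5% of all genes tested. Both si-circZFR libraries lay above both NC libraries for 14 genes and below both for 18, beside 28.1% and 28.1% of all genes tested, and for 20 the groups overlapped. These shares lie near the background, with 23 genes higher and 29 lower.

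The median log2FC of the 52 genes was -0.04 and that of all genes tested 0.01. Without scaling between libraries, the median of all genes moved to 0.15 and that of the 52 to 0.13, and 30 were higher and 22 lower, but 27 of the 52 were still below the median of all genes, compared with 30 in the scaled values. The log2FC of the 52 genes ran from -0.83 for *ACTA2* to 0.72 for *AMOTL1*, and none reached 1 in either direction in this fit. Beyond 1 were *ACTA2* with a pseudocount of 0.1 (-1.18), by limma-voom (-1.24) and without si-circZFR 1 (-1.0015), and *MYL12B* without NC 1 (-1.12). The upper 95% bound was below the lower bound of *TPM4* (1.79) for all 52, and the highest was 1.11. *TPM4* was taken up with its rise in these libraries known, so its place above the 52 was largely set by that choice. For 37 of the 52, the whole interval lay between -1 and 1, so a 2-fold change on this scale was within the interval of the other 15.

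**Figure D1:**
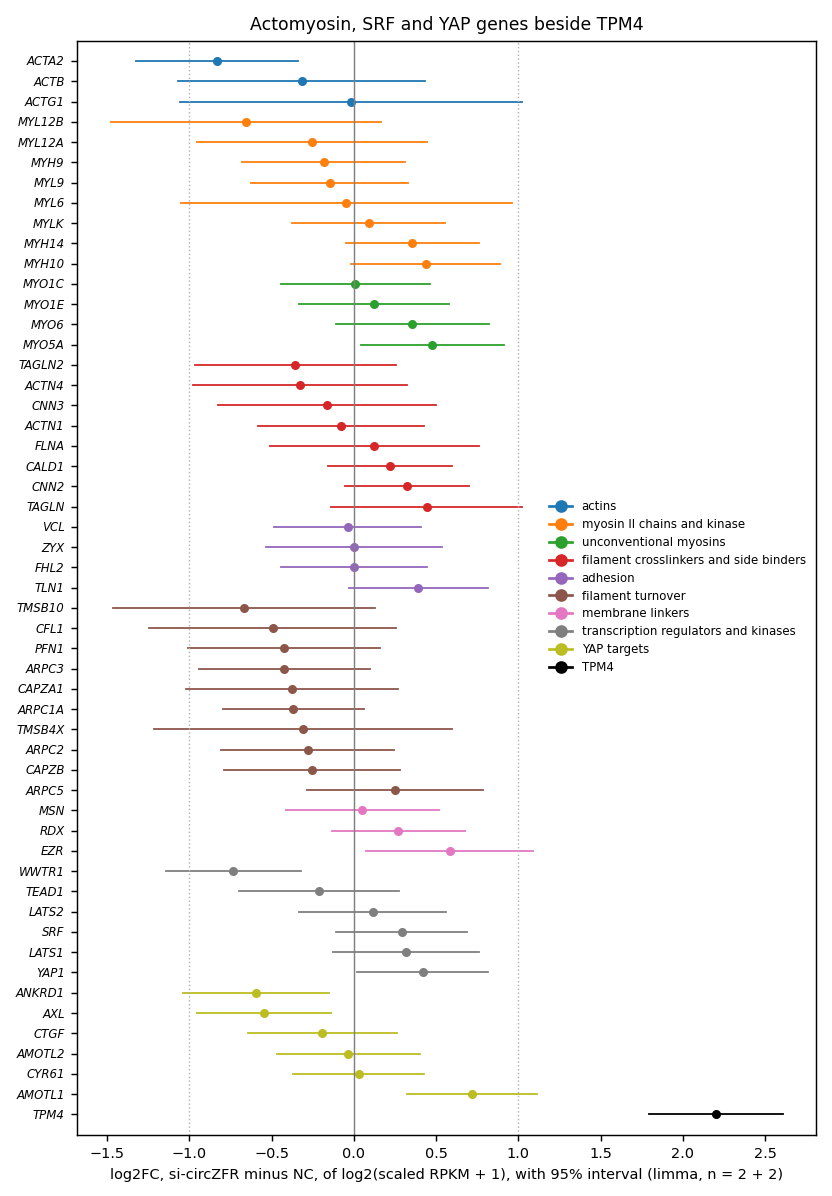
log2FC (si-circZFR minus NC, of log2(scaled RPKM + 1)) of the 52 genes and of TPM4, 1 gene per line, coloured by role. Points are limma estimates from 2 libraries per group, bars are 95% intervals, the solid line is 0 and dotted lines are -1 and 1. TPM4, taken up with its rise in these libraries known, stands at 2.20, whereas the 52 genes lie between -0.83 and 0.72. Every interval of the 52 ends below that of TPM4.

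The actins form the filaments themselves. *ACTG1*, cytoplasmic gamma-actin, had the highest mean level of the 52 genes (3481 scaled RPKM over the 4 libraries), with 3112 and 3916 in NC and 3521 and 3375 after silencing. The groups overlapped, and the log2FC of -0.02 (standard error 0.42) turned to 0.16 without scaling and to 0.03 with upper quartile scaling. *ACTB*, cytoplasmic beta-actin, was at 1229 and 1445 in NC and at 1116 and 1027 in si-circZFR. Both si-circZFR libraries were the lower ones, with a log2FC of -0.32 that was within its error (standard error 0.30, FDR = 0.572 by limma). *ACTA2*, the smooth muscle actin that MRTF and SRF switch on in contractile cells, was low throughout, at 3.249 and 3.241 in NC and 1.687 and 1.115 in si-circZFR. It rested on 67, 66, 34 and 24 reads. The groups did not overlap, and its log2FC of -0.83 was the lowest of the 52 (standard error 0.20, FDR = 0.116 by limma).

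Of the 8 genes for myosin II, the motor that pulls on actin filaments, and for its kinase, 3 were higher and 5 lower with a median log2FC of -0.10 (4 and 4, with a median of 0.06, without scaling). Their counts at an unadjusted p under 0.05 were 0 and 0. *MYH9*, the heavy chain of non-muscle myosin IIA, was at 196.2 and 161.6 in NC and 155.1 and 158.4 in si-circZFR. The distance between the NC libraries was larger than that between the groups, and the log2FC was -0.18 (standard error 0.20, FDR = 0.620 by limma). *MYH10*, the heavy chain of myosin IIB, was at 19.65 and 14.90 against 23.41 and 23.63 (log2FC 0.44, standard error 0.18, FDR = 0.242). *MYH14*, that of myosin IIC, was at 3.959 and 3.722 against 5.503 and 4.904 (log2FC 0.36, standard error 0.16, FDR = 0.270). So of the 3 heavy chains, *MYH10* and *MYH14* were higher and *MYH9* lower in both si-circZFR libraries, and none passed the test.

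The light chains of myosin II ranged from a log2FC of -0.65 for *MYL12B* to -0.05 for *MYL6*, but after the length correction *MYL6* was at 0.28 and *MYL9* at 0.05. *MYL12B*, a regulatory light chain, was at 136.4 and 261.0 in NC and at 129.2 and 110.5 after silencing. NC 2 stood apart from the other 3 libraries for this gene. *MYL9*, the regulatory light chain typical of smooth muscle, had the lowest mean level of the 52 genes (1.455 scaled RPKM) and rested on 82 reads in all. *MYLK*, the kinase that activates these light chains and a gene with a CArG box, was at 14.18 and 10.48 against 12.90 and 13.19. The groups overlapped for *MYLK*.

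The unconventional myosins carry cargo or link actin to membranes. The log2FC of all 4 was above 0 in the scaled values, with a median of 0.24, but *MYO1C* at 0.01 was lower after the length correction described below, in which 3 of 4 were higher, as were 2 of 4 without NC 2. *MYO5A*, the vesicle motor myosin Va, was at 8.410 and 6.540 in NC and at 10.56 and 10.90 in si-circZFR. *MYO6*, which moves towards the minus end of filaments, was at 4.527 and 3.788 against 4.925 and 6.299. The groups did not overlap for either gene. The log2FC was 0.48 for *MYO5A* (standard error 0.18, FDR = 0.201 by limma) and 0.35 for *MYO6* (standard error 0.19, FDR = 0.325).

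The 8 crosslinkers and side binders, which bundle filaments or lie along them, split evenly with 4 higher and 4 lower and a median log2FC of 0.02 (6 and 2, with a median of 0.20, without scaling). *CNN2*, a calponin and a gene with a CArG box, was at 39.12 and 38.85 in NC and 49.55 and 48.72 after silencing. The replicates were close together and the groups apart, and the log2FC was 0.33 (standard error 0.15, FDR = 0.279 by limma). *TAGLN*, transgelin, a classical smooth muscle target of SRF, was at 1.697 and 1.165 against 2.802 and 1.836 (log2FC 0.44, standard error 0.24, FDR = 0.325). It rested on 31, 21, 50 and 35 reads. Its relative *TAGLN2* had a log2FC of -0.36, and *ACTN4*, an alpha-actinin, -0.33. *FLNA*, filamin A, which joins filaments into a network, was at 540.0 and 467.4 against 608.1 and 493.8, and its groups overlapped.

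At adhesions, *TLN1* encodes talin, which couples integrins to actin, and *VCL* encodes vinculin, a further classical SRF target. *TLN1* was at 81.81 and 73.84 in NC and at 103.0 and 101.5 in si-circZFR, with both si-circZFR libraries above both NC libraries (log2FC 0.39, standard error 0.17, FDR = 0.256 by limma). *VCL* was at 98.03 and 82.69 against 90.07 and 85.33. Its groups overlapped, and its log2FC of -0.04 turned to 0.13 without scaling and to 0.01 with upper quartile scaling. *ZYX*, zyxin, and *FHL2*, a LIM protein with CArG boxes near its start sites, were also close to 0, at -0.0006 and 0.0014 on the log2 scale.

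The 10 genes of filament turnover sever, cap, branch or hold back actin. The log2FC was below 0 for 9 of them, also without scaling and with upper quartile scaling, and for 8 after the length correction or without NC 2. The median log2FC was -0.37, and -0.16 without NC 2. *TMSB10*, thymosin beta-10, which sequesters monomeric actin, was at 951.6 and 1422 in NC and at 713.5 and 751.6 in si-circZFR. *ARPC1A*, a subunit of the Arp2/3 complex that branches filaments, was at 46.90 and 56.15 against 41.42 and 37.77. Both genes were lower in both si-circZFR libraries. The log2FC was -0.67 for *TMSB10* (standard error 0.32, FDR = 0.290 by limma) and -0.37 for *ARPC1A* (standard error 0.17, FDR = 0.283). That of *TMSB10* was -0.23 after the length correction and -0.38 without NC 2. *CFL1*, cofilin, which severs filaments, was at 661.5 and 994.1 against 579.5 and 572.0, and *PFN1*, profilin, which feeds monomers to growing ends, at 489.2 and 571.7 against 391.3 and 395.1. Of this group only *ARPC5*, another Arp2/3 subunit, was higher, with a log2FC of 0.25. None of the 10 reached an unadjusted p under 0.05 in this fit, whereas 6 were lower at that level without NC 1, 2 without the trend in the prior variance and 1 by limma-voom.

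For some of these abundant genes, reads may be divided between the gene and its processed copies. Pseudogenes named for *TMSB4X* held 12123 reads beside 8327 for the gene itself (146%), and those of *PFN1* and *ARPC3* held 27.2% and 26.1% of their gene's reads. The *TMSB4X* copies held 2391 and 4811 reads in NC and 2073 and 2848 in si-circZFR. The gene held 1633, 2986, 1440 and 2268 reads, so both were highest in NC 2. The levels of *TMSB4X*, *PFN1* and *ARPC3* are therefore uncertain. For *MSN* the share was 7.16%, and for *ACTB*, *ACTG1*, *CFL1*, *MYL6*, *TMSB10* and *CAPZA1* it was at most 1.46%. The *TPM4* pseudogene held 2 reads.

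The ERM proteins ezrin, radixin and moesin tether filaments to the cell membrane. *EZR* was at 68.49 and 85.90 in NC and at 105.7 and 126.1 in si-circZFR. The groups did not overlap, and its log2FC was 0.58 (standard error 0.21, FDR = 0.189 by limma). *RDX* was at 22.42 and 24.71 against 26.68 and 30.67, again without overlap (log2FC 0.27, standard error 0.16, FDR = 0.375). *MSN* was at 142.4 and 155.2 against 162.1 and 146.5, and its groups overlapped. All 3 had a log2FC above 0 under each scaling, but 2 of 3 without NC 1 or without si-circZFR 1.

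Among the regulators, the transcripts of YAP and TAZ differed in direction. *YAP1* was at 10.75 and 9.110 in NC and at 13.29 and 13.83 in si-circZFR, whereas *WWTR1*, the TAZ gene, was at 22.66 and 27.25 against 14.93 and 14.22. The groups of both genes were apart, in opposite directions. The log2FC was 0.42 for *YAP1* (standard error 0.16, FDR = 0.216 by limma) and -0.73 for *WWTR1* (standard error 0.17, FDR = 0.106), and neither passed the test. *TEAD1*, a DNA-binding partner of both, was at 27.14 and 19.60 against 20.24 and 19.35. Only NC 1 was high for *TEAD1*, and its log2FC of -0.21 turned to 0.01 when NC 1 was left out. The log2FC of *TEAD1* was -0.44 without NC 2 and -0.39 after the length correction. The LATS kinases had a log2FC of 0.32 for *LATS1* and 0.11 for *LATS2*.

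*SRF*, which carries CArG boxes in its own promoter and is known to act on itself, was at 8.213 and 6.958 in NC and at 9.759 and 9.193 in si-circZFR. Both si-circZFR libraries were higher, and the log2FC was 0.29 (standard error 0.16, 95% interval -0.11 to 0.69, FDR = 0.345 by limma). The 8 genes with a CArG box (*ACTG1*, *MYLK*, *MYO1E*, *ACTN1*, *FLNA*, *CNN2*, *FHL2* and *SRF*) had log2FC values from -0.08 to 0.33 with a median of 0.11. Of them, 6 were higher and 2 lower (8 and 0 without scaling, 5 and 3 after the length correction), 0 reached an unadjusted p under 0.05, and the groups were apart for *CNN2* and *SRF*. Without scaling, which moved the median of all genes up, the groups of 7 of the 8 were apart, and 1 reached an unadjusted p under 0.05, as *CNN2* did after the length correction. *TPM4*, which also holds a box, was above all of them at 2.20. The SRF targets *ACTA2* (-0.83), *VCL* (-0.04) and *TAGLN* (0.44) are not among the 8. No exact box was found for *ACTA2* and *VCL*, and no promoter for *TAGLN*. The 17 genes with CATTCC had a median of -0.08, with 6 higher and 11 lower (10 and 7 without scaling).

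**Figure D2:**
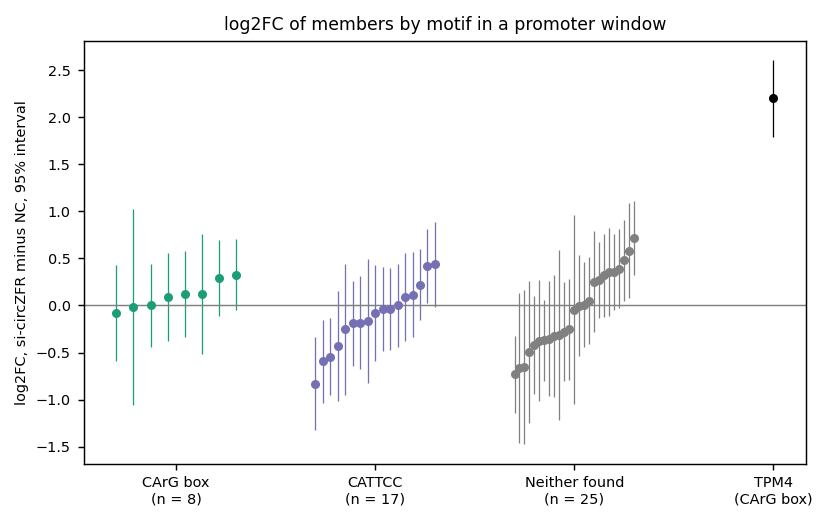
log2FC (si-circZFR minus NC) with 95% intervals for the genes with a promoter sequence, sorted within 4 classes by the motif found. 3 genes with both motifs stand in both motif classes, and 25 have neither. The CArG class lies between -0.08 and 0.33, the CATTCC class reaches from -0.83 to 0.44, and TPM4 stands alone at 2.20.

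The YAP target genes did not share a direction, with 2 of 6 higher and 4 lower and a median log2FC of -0.11, and with 3 and 3 without scaling. *CTGF*, a secreted matricellular protein, was at 3.019 and 3.794 in NC and at 3.015 and 2.683 in si-circZFR. Its lowest NC value was next to its highest si-circZFR value, and the log2FC was -0.19 (standard error 0.18, FDR = 0.572 by limma). *CYR61*, its close relative now named *CCN1*, was at 17.94 and 16.59 against 16.35 and 19.01. The groups overlapped, and the log2FC of 0.03 (standard error 0.16) turned to -0.02 without NC 2 and to -0.07 without si-circZFR 2. The 95% interval of *CYR61* ran from -0.37 to 0.43.

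The other YAP targets lay further from 0. *ANKRD1*, an ankyrin repeat protein widely used as a YAP readout, was at 2.548 and 2.668 in NC and at 1.503 and 1.283 after silencing, on 59, 61, 34 and 31 reads. *AXL*, a receptor tyrosine kinase, was at 108.8 and 110.1 against 74.22 and 74.96. Replicates of both genes were close together and all si-circZFR values were lower, with log2FC values of -0.59 (standard error 0.18, FDR = 0.155 by limma) and -0.55 (standard error 0.17, FDR = 0.155). *AMOTL1*, an angiomotin-like protein that binds YAP and holds it at junctions, was at 5.466 and 4.677 against 8.998 and 8.903. Its log2FC of 0.72 was the highest of the 52 genes (standard error 0.16, FDR = 0.103 by limma). Its relative *AMOTL2*, in contrast, was at 28.45 and 27.08 against 24.15 and 30.40, where the groups overlapped.

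**Figure D3:**
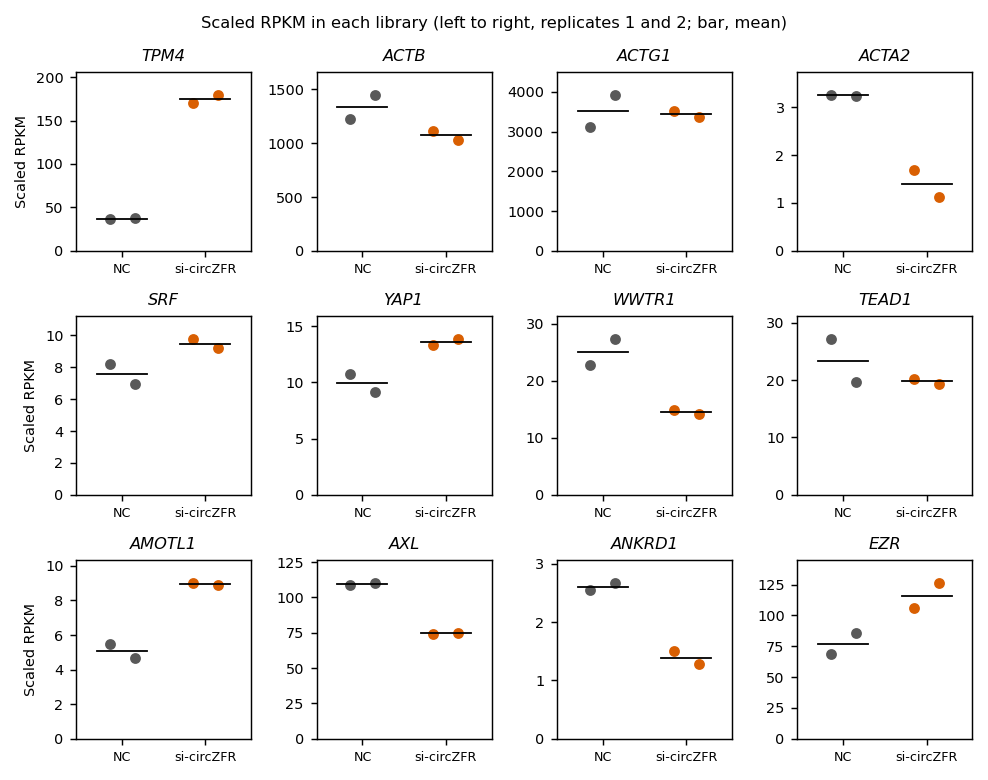
Scaled RPKM of 12 genes in each library (left to right within a group, replicates 1 and 2), with a bar at the group mean and each vertical axis starting at 0. TPM4 went from about 37 to between 170.0 and 179.1, whereas ACTG1 and TEAD1 overlap between groups, WWTR1, AXL, ANKRD1 and ACTA2 are lower, and YAP1, AMOTL1 and EZR are higher in both si-circZFR libraries.

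The log2FC of the 52 genes went with gene length in these libraries. Spearman's correlation was 0.5516 across the 52 genes, which share the same 4 libraries, and 0.2938 across all genes tested. The 26 shorter genes (482 to 2344 bases) were higher in 6 and lower in 20 cases, with a median log2FC of -0.25, whereas the 26 longer genes (2740 to 12225 bases) were higher in 17 and lower in 9, with a median of 0.12. The filament turnover genes had a median length of 1435 bases and the unconventional myosins of 6886. Between the NC libraries, NC 2 minus NC 1 had a correlation of -0.7392 with length across the 52 genes, and si-circZFR 2 minus si-circZFR 1 one of 0.064. Without NC 2, the correlation of the log2FC with length was 0.2365.

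A smooth correction for length in each library brought the correlation to 0.1962 across the 52 genes and to 0.0051 across all genes. The shorter genes then had a median of -0.14, with 11 higher and 15 lower, and the longer genes one of 0.01, with 13 and 13. *ACTA2* (-0.76), *WWTR1* (-0.84), *AXL* (-0.65), *ANKRD1* (-0.55) and *TEAD1* (-0.39) stayed below 0, and *AMOTL1* (0.55), *EZR* (0.54), *YAP1* (0.30) and *MYO5A* (0.27) above it. After the correction, 0 of the 52 genes passed the test as well. The part of length in the directions of single genes was otherwise not tested.

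**Figure D4:**
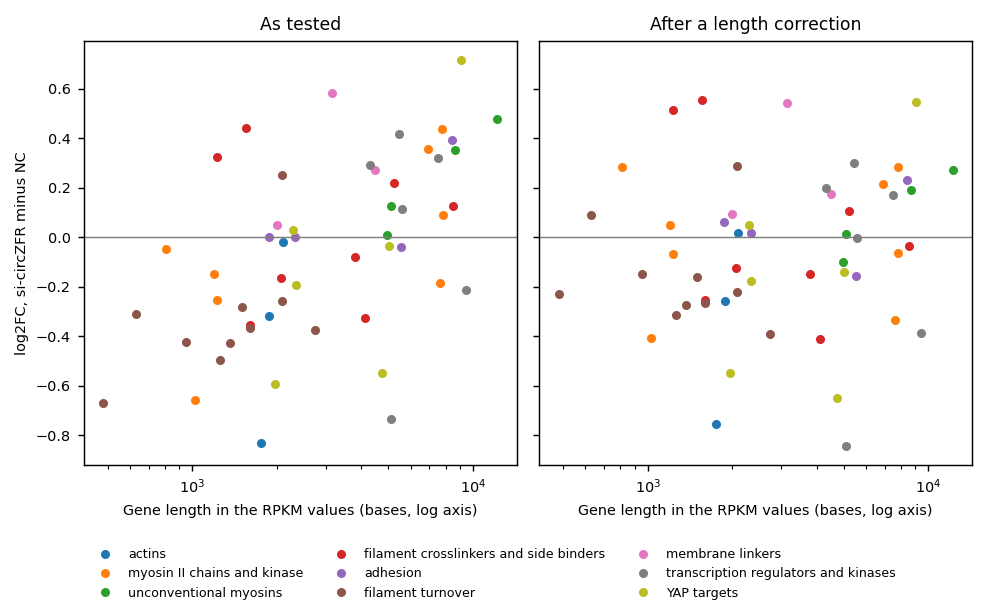
log2FC (si-circZFR minus NC) of the 52 genes against gene length in bases on a log axis, as tested on the left and after the length correction on the right, coloured by role. The points climb with length on the left (Spearman's correlation 0.5516) and less so on the right (0.1962), where the brown filament turnover genes move up towards 0.

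A further 100 genes of the same pathways were counted in 8 lists, of which 90 genes were tested, with 60 higher and 30 lower. Over all 13885 genes tested, 7033 were higher and 6852 lower. None of the 90 passed the test, the smallest FDR was 0.0782, and the median log2FC was 0.11. At an unadjusted p under 0.05, 18 of the 90 were higher and 9 lower, beside the 10.1% and 11.5% of all genes. Without scaling, 73 of the 90 were higher and 17 lower, beside 9022 and 4863 of all genes. After the length correction, 53 of the 90 were higher and 37 lower, with a median log2FC of 0.05, beside 6929 and 6956 of all genes. The 9 other SRF cofactors and targets tested were 5 higher and 4 lower, and 2 and 7 after the length correction. *MKL1* and *MKL2*, which encode the MRTF cofactors, both had a log2FC of 0.06. *ELK3*, a ternary complex partner of SRF, was at 32.94 and 33.11 in NC and at 17.40 and 13.71 in si-circZFR (log2FC -1.05, standard error 0.17, FDR = 0.0820 by limma). Of 15 further YAP targets, 8 were higher and 7 lower (12 and 3 without scaling), and *CCDC80* was at 6.085 and 6.564 against 13.48 and 13.99 (log2FC 1.01, standard error 0.15, FDR = 0.0782). Of 11 Hippo genes, 6 were higher and 5 lower, and *WWC1*, which encodes the LATS activator KIBRA, was at 23.33 and 19.85 against 40.59 and 44.35 (log2FC 0.95, standard error 0.17, FDR = 0.0820).

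Further lists held 10 of 17 turnover genes, 9 of 12 adhesion and LIM genes, 6 of 6 myosins and 3 of 3 tropomyosins with a log2FC above 0, and the last counts were 5 of 6 and 2 of 3 after the length correction. Without scaling, the first counts were 14 of 17 and 11 of 12, and the turnover count was 5 of 17 without NC 1, 7 of 17 without si-circZFR 2 and 15 of 17 without NC 2. The cortical Arp2/3 activator *CTTN* was at 64.21 and 36.34 in NC and at 105.1 and 136.2 in si-circZFR (log2FC 1.29, standard error 0.31, FDR = 0.115 by limma). *MYO18A*, a myosin of the Golgi, was at 18.00 and 10.07 against 31.37 and 32.57 (log2FC 1.18, standard error 0.27, FDR = 0.108). *LASP1*, a LIM and SH3 adaptor, was at 256.9 and 274.7 against 165.0 and 154.8 (log2FC -0.73, standard error 0.19, FDR = 0.13). For all 3 genes the groups did not overlap, although NC 2 was far below NC 1 for *CTTN* and *MYO18A*. The other tropomyosins were nearer to 0 than *TPM4*, with *TPM2* at 46.12 and 50.18 against 61.93 and 91.96 (log2FC 0.64, standard error 0.23, FDR = 0.195), *TPM1* at a log2FC of 0.47 and *TPM3* at 0.01.

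Silencing was also read against a 3′UTR heptamer, CTGACTC, which was taken up because genes that hold it were lower in an earlier look at these data. Among 11160 genes tested with a 3′UTR, 1260 (11.29%) hold it, with a median log2FC of -0.05 against 0.04 for the rest. As the heptamer was chosen on these data, this difference is not an independent result. Of the 52 genes, 5 hold it (9.615%): *ACTA2*, *MYL12B*, *MYLK*, *MYO1C* and *MYO1E*. Their median log2FC was 0.01, against -0.04 for the other members, and the 5 went in both directions, from -0.83 to 0.12. The sites of the lowest pair, with the heptamer in capitals, are shown because these were also the lowest actin and the lowest myosin gene.
ACTA2: tagccaaagctCTGACTCgttacctatgt
MYL12B: taaagattatgCTGACTCaaatgcaatgt

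The *ACTA2* site is chr10:88935108-88935136 on the minus strand and the *MYL12B* site chr18:3278254-3278282 on the plus strand, both in GRCh38. *ACTA2* was the lowest of the 52 genes at -0.83 and *MYL12B* was at -0.65, but *MYLK*, with 2 sites, was at 0.09.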

How the data were processed

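Per-gene RPKM values were deposited by the authors for 4 libraries sequenced on the Ion Proton from total RNA. The methods name hg38 and the submitters' processing notes GRCh37, and the aligner, the gene annotation and the use of strand in counting are not given in the sources used here. The methods state a batch correction and a count-based test of differential expression. Groups and replicate numbers came from the sample titles.

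Whole reads were recovered from the RPKM steps for 24281 of 24289 genes above 0 (99.967%, tolerance 0.001) and were used for depth, lengths, a CPM filter and limma-voom. Libraries were brought to a common scale by a trimmed mean of their log ratios (leaving out 30% of ratios and 5% of levels), with factors from 0.90366 to 1.1089. A gene entered the test if 2 or more libraries reached an RPKM of 1, and was tested by limma 3.58.1 (R 4.3.3) on log2(scaled RPKM + 1), with a trended prior variance, two-sided, and FDR by Benjamini-Hochberg over all 13885 genes. A gene passed at FDR under 0.05 and |log2FC| over 1. An exact permutation test of 2 against 2 libraries cannot go below p = 0.333. The script was tested on simulated data, which held no trend with gene length and so differed from these libraries.

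The 52 genes, the lists and the tests were chosen with earlier results of these data known. Genes given by library are *TPM4*, *ZFR*, 10 fixed genes, the 2 members with the smallest p in each role group and the top gene of each pathway list reported; others shown were chosen after their values were seen. Results of 1 pathway list are counted in the totals and not reported here. Promoters came from RefSeq (GRCh38.p14) and gene positions and 3′UTRs from GENCODE on GRCh38. All 53 symbols matched, 2 under another current symbol. Python 3.11.15, numpy 2.4.6, pandas 2.3.3 and matplotlib 3.10.9 were used.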

Additional observations from a re-analysis of the deposited data

How the results depend on the processing

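With 2 libraries per group, depth of 11040050 reads or more and prior degrees of freedom of 3.814, many changes below 2-fold cannot be told from the spread. None of the 52 genes passed under any of the 13 alternatives. Over all genes, 8 passed, against 2 with a pseudocount of 0.1, 0 without a filter (1693 higher and 1946 lower at an unadjusted p under 0.05), 179 with a CPM filter, 14 after length correction, 304 by limma-voom, 1 without the trend, and 0 to 717 when a library was left out (717 without NC 1). With the replicate number as a block (replicate block), 63 passed and 1 of the pathway genes. The numbers share only a label, the correlation of deviations being 0.06937. The pathway lists gave 2 passing genes with the CPM filter, 3 by limma-voom and 0 to 6 with a library left out (6 without NC 1). The FDR of *TPM4* and *ZFR* was 0.0506 with a pseudocount of 0.1, 0.227 without a filter and 0.0568 without the trend.

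The median log2FC of the 52 genes was 0.1344 without scaling, 0.0113 with upper quartile scaling, -0.0534 without a filter and -0.0531 with the CPM filter, and ran from -0.0432 to -0.0114 with a library left out. Without scaling, which moved the median of all genes up, 22 genes were above both NC libraries and 12 below (39.6% and 18.2% of all genes). At an unadjusted p under 0.05, 9 genes were higher and 3 lower without scaling (15.4% and 6.94% of all genes), and 7 and 4 with upper quartile scaling (11.7% and 10.2%). With a library left out these numbers ran from 1 to 5 for higher genes and from 1 to 13 for lower ones (13 without NC 1, where 16.4% of all genes were). Of the 52 genes, 7 turned direction without scaling, 5 with upper quartile scaling, 9 after length correction and 5 to 10 with a library left out. Of the genes given by the naming rule these were *ACTG1* (0.1559 without scaling, 0.03 with upper quartile scaling, 0.0159 after length correction, -0.1837 to 0.1474 with a library left out), *VCL* (0.134 without scaling, 0.0096 with upper quartile scaling, -0.1596 to 0.0834), *TEAD1* (-0.4375 to 0.0129) and *CYR61* (-0.0712 to 0.1348). The causes were not tested.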
